A study of Mus musculus with 6 samples.

Results

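The 38 genes described here encode lysosomal hydrolases, lysosomal membrane proteins, subunits of the vacuolar proton pump (V-ATPase) and the TFEB family of transcription factors. They were taken by gene name from a count table of 53465 mouse genes. Each name matched 1 gene, and all 38 had enough reads to enter the test.

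RNA was sequenced from cell lines grown out of mouse liver tumours of 2 genotypes, one called Myc_Utx in the labels and Myc;sgKdm6a here, the other giving the comparison lines. The tumours arose in adult female C57BL/6 mice after a tail vein injection that delivered a Myc transposon and a Cas9 plasmid with a single guide RNA against Kdm6a (also called Utx, a histone H3K27 demethylase) or, for the comparison lines, against another gene. Both groups therefore carry the Myc transposon, and they differ in both targeted genes, so an effect of losing Kdm6a cannot be told apart from an effect of the guide in the comparison lines. Each group holds 3 lines, each from the tumour of a different mouse: 2A, 2B and 2D for Myc;sgKdm6a, and 1, 2 and 3 for the comparison. A line is a single passaged culture of its tumour, which limits it as a model of tumours of its genotype.

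Lysosomes are acidic organelles in which proteases, glycosidases and lipid enzymes break down material delivered by endocytosis and autophagy. The V-ATPase acidifies their lumen with a membrane sector, V0, that carries protons and a cytosolic sector, V1, that hydrolyses ATP, and the complex is also part of the machinery that recruits mTORC1 to the lysosomal surface. Active mTORC1 phosphorylates TFEB, TFE3 and MITF and keeps them in the cytoplasm, whereas their dephosphorylated forms enter the nucleus and bind the CLEAR element in promoters of many lysosomal genes. A change in their activity can therefore occur without a change in their own mRNA.

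The promoters of several of the 38 genes carry the core of the CLEAR element, TCACGTGA. Promoter windows from 250 bases before to 50 bases after the start site, taken from RefSeq for GRCm38.p6, were found for 32 of the 38 genes. TCACGTGA reads the same on both strands and contains the E-box CACGTG. It was present in windows of 6 of the 32 genes (18.8%). The share was 2.3% of the 8860 genes tested here that had a window and 1.12% of all 27025 genes with a window. The matches are shown because the TFEB family binds this motif. Each is given within 30 bases of promoter, with the motif in capitals and written 5′ to 3′ along the strand of the gene.
Ctsa, chr2:164833749-164833778, plus strand: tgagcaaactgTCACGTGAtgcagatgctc
Ctsa, chr2:164833766-164833795, plus strand: gatgcagatgcTCACGTGAccagagctaca
Ctsd, chr7:142387908-142387937, minus strand: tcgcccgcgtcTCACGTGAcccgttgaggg
Mcoln1, chr8:3500462-3500491, plus strand: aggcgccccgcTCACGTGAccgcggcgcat
Gla, chrX:134601215-134601244, minus strand: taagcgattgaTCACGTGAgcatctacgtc
Gla, chrX:134601182-134601211, minus strand: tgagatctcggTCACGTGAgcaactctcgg
Atp6v0d1, chr8:105566050-105566079, minus strand: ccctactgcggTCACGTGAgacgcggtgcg
Atp6v1a, chr16:44139373-44139402, minus strand: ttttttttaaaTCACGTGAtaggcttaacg

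Ctsa and Gla each held 2 copies. The shorter CACGTG was found in windows of 12 of the 32 genes (37.5%), against 12.3% of the tested genes with a window and 8.09% of all genes with a window. Beyond the 6 genes above it was present in Atp6v0b, Ctsl, Gaa, Glb1, Lamp1 and Naglu. Lamp1, which encodes an abundant glycoprotein of the lysosomal membrane, had 4 copies close to its start site, of which 2 are shown within their windows.
Lamp1, chr8:13159088-13159117, plus strand: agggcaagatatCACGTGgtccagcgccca
Lamp1, chr8:13159134-13159163, plus strand: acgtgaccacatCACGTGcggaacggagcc

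These matches describe the letters in the windows and not binding in these cells. The results for these genes are given below with those of the others.

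Between 4656103 and 5473042 reads per Myc;sgKdm6a line and between 5370608 and 6937497 per comparison line were assigned to genes. The reads of Kdm6a did not separate the groups, with counts of 199, 244 and 220 in lines 2A, 2B and 2D and of 440, 348 and 298 in lines 1, 2 and 3 (adjusted p = 0.243 by the quasi-likelihood test of edgeR), and an indel need not lower the count of a transcript. The counts of the targeted gene therefore give no check of the Myc;sgKdm6a label, on which every comparison here rests. The labelled liver cell type was poorly marked: Alb, the main product of hepatocytes, had 4 to 26 counts in every line and Cps1 had 0 to 2. The summed level of 10 hepatocyte markers was 28.5, 94.6 and 3.34 counts-per-million (CPM) in lines 2A, 2B and 2D and 1207, 47.3 and 780 CPM in lines 1, 2 and 3, most of it from the keratins Krt8 and Krt18. Macrophage markers moved with the genotype as a sum, at 2.79, 6.37 and 5.57 CPM against 110, 46.2 and 126 CPM. Of 15 entries, 1 (Cd68) was above 3 counts in every Myc;sgKdm6a line and 10 in every comparison line. Cd68 overlapped, at 2.79, 3.93 and 5.34 CPM against 10.3, 3.34 and 6.84 CPM (edgeR adjusted p = 0.3), as did Itgam at 0 to 3 counts. The Kupffer cell marker Clec4f was at 0 throughout and Ptprc at no more than 3 counts. Fibroblast and stellate cell markers summed to 1952, 2686 and 2692 CPM against 41.2, 3164 and 712 CPM. Col3a1 made up most of that sum in lines 2A, 2B, 2D and 2 (1731, 2301, 2558 and 2721 CPM), but not in lines 1 and 3 (10.3 and 73.9 CPM). Mean CPM was higher in Myc;sgKdm6a lines for Col3a1 (2197 against 935) and Pdgfrb (187 against 94), and Lum had at most 1 count per line. The mean was lower for Col1a1 (24.6 against 128), Col1a2 (22.1 against 56.4), Acta2 (12.9 against 82.1) and Dcn (0.254 against 10.3). Cholangiocyte markers summed to 61.7 to 89.9 CPM against 82.1 to 443 CPM, and endothelial markers to at most 1.42 CPM. Comparison line 2 lay near the Myc;sgKdm6a lines in Krt8, Krt18 and Col3a1, but with line 3 in Col1a1 (144 and 236 CPM, against 4.01 to 35.3 CPM in Myc;sgKdm6a lines).

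Most lysosome genes did not differ between the genotypes beyond the spread of the lines. Of the 38 genes, 1 was higher in Myc;sgKdm6a lines at an adjusted p under 0.05 (2.63%), Gusb, and 2 were lower (5.26%), Grn and Asah1. Over all 11510 genes tested, 6.99% were called higher and 7.69% lower, so the lysosome genes were called no more often than genes at large. With total counts in place of trimmed mean of M-values (TMM) scaling, 601 genes were called higher and 1009 lower, compared with 805 and 885 with TMM. Calls rest on edgeR's quasi-likelihood test, adjusted over all genes by the Benjamini-Hochberg method, and levels are TMM-normalized CPM. Positive log2 fold changes stand for genes higher in Myc;sgKdm6a lines, and each is followed by its standard error. In these cultures, fewer cells of a type and less RNA per cell cannot be told apart.

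The log2 fold changes of the 38 genes ranged from -2.34 to 0.75. Their median was -0.10, beside -0.01 for all genes tested, with 15 genes above 0 and 23 below. Without line 1 the median was 0.01, and without line 2D it was -0.04. The 3 values of a group lay wholly above those of the other for 5 genes in the Myc;sgKdm6a lines (Scarb2, Gla, Gusb, Smpd1 and Atp6v1e1) and for 6 genes in the comparison lines (Lamp2, Ctsa, Ctsl, Hexa, Asah1 and Grn). These are 13.2% and 15.8% of the lysosome genes, compared with 21.1% and 20.9% of all genes tested, and with total counts in place of TMM they were 3 and 8 genes. Together the 38 genes made up 0.409%, 0.452% and 0.404% of the reads of lines 2A, 2B and 2D and 0.512%, 0.562% and 0.466% of those of lines 1, 2 and 3. After TMM scaling the groups overlapped. The 38 genes then summed to 4151, 4627 and 4190 CPM against 4953, 5592 and 4608 CPM, and line 2B exceeded line 3.

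**Figure D1:**
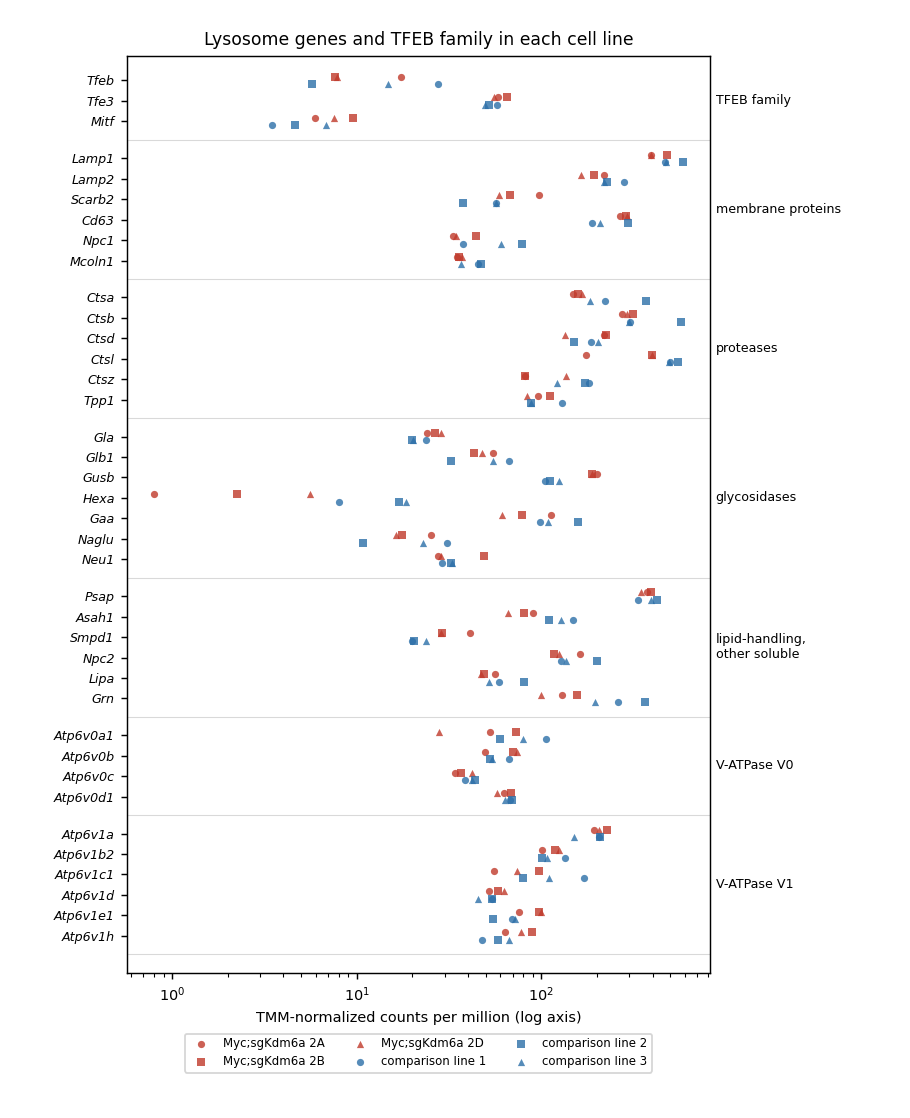
TMM-normalized counts-per-million of the 38 genes on a log axis, with 1 point for each cell line, Myc;sgKdm6a lines in red and comparison lines in blue, grouped by the role of the protein. For most genes the red and blue points overlap. They do not for 5 genes higher and 6 genes lower in Myc;sgKdm6a lines, among them Gusb, Grn, Asah1 and Hexa.

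Per kilobase of the deposited transcript length, the highest level was that of Lamp1, with a mean of 174 CPM per kilobase over the 6 lines. The deposited length equalled the merged length of all annotated exons for Lamp1 (2675 bases) and Ctsl (6489 bases). It can therefore exceed the length of a single mRNA, and the order given here depends on it. Psap, the precursor of the saposins that present sphingolipids to their hydrolases, followed with 138, and the cathepsins Ctsz and Ctsd with 89.6 and 79.1. Exons of Ctsd share 808 bases, 34.4% of its exonic length, with Gm49369 on the same strand, which had 1 count over the 6 lines. How reads in those bases were counted is not known, so the level of Ctsd per kilobase is uncertain. Mitf, with 1.02 CPM per kilobase, and Tfeb, with 2.38, were the lowest of the 38, while Tfe3, with 6.08, lay above Mcoln1 (5.23), Npc1 (4.48) and Hexa (4.34). In Myc;sgKdm6a lines alone, Hexa stood near Mitf, with 1.44 CPM per kilobase compared with 1.24.

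The 3 transcription factors did not differ between the genotypes by the test. Tfeb (chr17:47737030-47792419) was at 17.4, 7.68 and 7.79 CPM in lines 2A, 2B and 2D and at 27.7, 5.75 and 14.7 CPM in lines 1, 2 and 3. The groups overlapped, and line 2 was the lowest of all 6. Its log2 fold change was -0.55 ± 0.61 (edgeR adjusted p = 0.554), and without line 1 it was 0.09. Tfe3 (chrX:7762560-7775202) showed little spread, with 58.4, 65.2 and 55.2 CPM against 57.4, 51.9 and 49.6 CPM and a log2 fold change of 0.17 ± 0.13 (edgeR adjusted p = 0.402). Mitf (chr6:97807052-98021349), better known from melanocytes and osteoclasts, had 5.98, 9.55 and 7.57 CPM against 3.48, 4.63 and 6.84 CPM, with overlap between line 2A and line 3. The log2 fold change of Mitf was 0.62 ± 0.36 (edgeR adjusted p = 0.26).

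Among the 6 membrane proteins none passed the test, and the median log2 fold change was -0.27. The largest in size was that of Npc1, which moves cholesterol out of the lysosome, with 33.3, 44.4 and 34.3 CPM in lines 2A, 2B and 2D and 37.6, 78.4 and 60.2 CPM in lines 1, 2 and 3. Line 1 lay among the Myc;sgKdm6a lines, and the log2 fold change was -0.65 ± 0.29 (edgeR adjusted p = 0.162). Scarb2, the receptor that carries glucocerebrosidase to lysosomes, had no overlap, with 96.7, 67.8 and 59 CPM against 56.6, 37.6 and 56.6 CPM (log2 fold change 0.57 ± 0.25, edgeR adjusted p = 0.164). Lamp2, needed for the fusion of autophagosomes with lysosomes, lay the other way without overlap, at 218, 193 and 164 CPM against 279, 227 and 219 CPM, where the nearest lines differed by about 1 CPM. Its log2 fold change of -0.34 ± 0.15 did not pass (edgeR adjusted p = 0.175). Lamp1, the tetraspanin Cd63 and the calcium channel Mcoln1 overlapped, with log2 fold changes of -0.28, 0.29 and -0.26. Cd63 was at 267 to 290 CPM in Myc;sgKdm6a lines and at 188, 296 and 208 CPM in lines 1, 2 and 3, so line 2 alone made the overlap. Without line 2 the log2 fold change of Cd63 was 0.51 ± 0.10 (edgeR adjusted p = 0.033).

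Protease mRNAs were, as a sum, lower in each Myc;sgKdm6a line than in any comparison line, but no single protease gene passed the test. The 6 genes summed to 992, 1282 and 1207 CPM in lines 2A, 2B and 2D and to 1516, 1896 and 1383 CPM in lines 1, 2 and 3. This was not particular to the proteases. The lipid-handling and other soluble proteins described below summed to 851, 823 and 713 CPM against 953, 1197 and 929 CPM, also without overlap. The summed macrophage markers, at 2.79 to 6.37 CPM against 46.2 to 126 CPM, moved the same way, with line 2 the highest of the comparison lines for the proteases and the lowest for the markers, and their part in the protease sum was not tested. Of the 6 protease genes, 5 had a log2 fold change below 0, and the median of the 6 was -0.54. Ctsa, the protective protein that stabilises beta-galactosidase and neuraminidase, was at 148, 157 and 166 CPM against 221, 367 and 183 CPM. Its groups did not overlap, and its log2 fold change of -0.71 ± 0.26 did not pass (edgeR adjusted p = 0.108), whereas the Wald test of DESeq2 gave an adjusted p of 0.0415. Exons of Ctsa share 495 bases with Pltp and 324 bases with Neurl2, both on the opposite strand. The strand setting of the counting is not given, so how reads in those bases were counted is not known. Ctsl, a cysteine protease, had 175, 395 and 397 CPM against 495, 550 and 492 CPM, again without overlap, with line 2A far below the others (log2 fold change -0.67 ± 0.31, edgeR adjusted p = 0.177). Ctsz, a carboxypeptidase, had 81.2, 82 and 136 CPM against 182, 173 and 121 CPM, and line 2D exceeded line 3. The log2 fold change of Ctsz was -0.67 ± 0.26 (edgeR adjusted p = 0.124). Ctsb was at 274 to 313 CPM in Myc;sgKdm6a lines and at 302, 568 and 298 CPM in lines 1, 2 and 3, with a log2 fold change of -0.41 that was -0.04 without line 2. Exons of Ctsb share 774 bases, 12.8% of its exonic length, with Fdft1 on the opposite strand, which had 2874 counts over the 6 lines. The aspartic protease Ctsd (0.10) and the tripeptidyl peptidase Tpp1 (-0.07) lay near a log2 fold change of 0.

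Gusb was the only glycosidase, and the only one of the 38 genes, called higher in Myc;sgKdm6a lines. Gusb (chr5:129989011-130003049, minus strand) encodes beta-glucuronidase, which removes glucuronic acid from glycosaminoglycans. It was at 199, 187 and 188 CPM in lines 2A, 2B and 2D and at 104, 112 and 124 CPM in lines 1, 2 and 3. The groups were far apart relative to their spread, with means of 192 ± 6.79 and 114 ± 9.93 CPM (SD, n = 3 each). The difference was 1.69-fold, a log2 fold change of 0.75 ± 0.11 (edgeR adjusted p = 0.0165). The direction held when any line was left out, at 0.69 to 0.82. The call was kept without line 1 or line 2 (adjusted p = 0.0382 and 0.0231 by edgeR) but not without line 2A, 2B, 2D or 3, where edgeR gave 0.0656, 0.0614, 0.0675 and 0.0529.

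Hexa had the largest log2 fold change of the 38 genes in size, at low counts. Hexa (chr9:59539540-59565109) encodes the alpha subunit of beta-hexosaminidase, which takes part in the breakdown of GM2 ganglioside. It had 4, 12 and 25 counts in lines 2A, 2B and 2D and 51, 91 and 129 counts in lines 1, 2 and 3, or 0.798, 2.25 and 5.57 CPM against 8.06, 16.9 and 18.4 CPM. The groups did not overlap, but both were wide, and line 2A was about 7 times lower than line 2D (2D over 2A, 6.98). The log2 fold change of -2.34 ± 0.69 did not pass in edgeR (adjusted p = 0.0657, 0.0729 to 0.176 with a line left out) and passed in DESeq2 (adjusted p = 0.0102). Exons of Hexa share 255 bases with Tmem202, which had 1 count in all lines together.

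**Figure D2:**
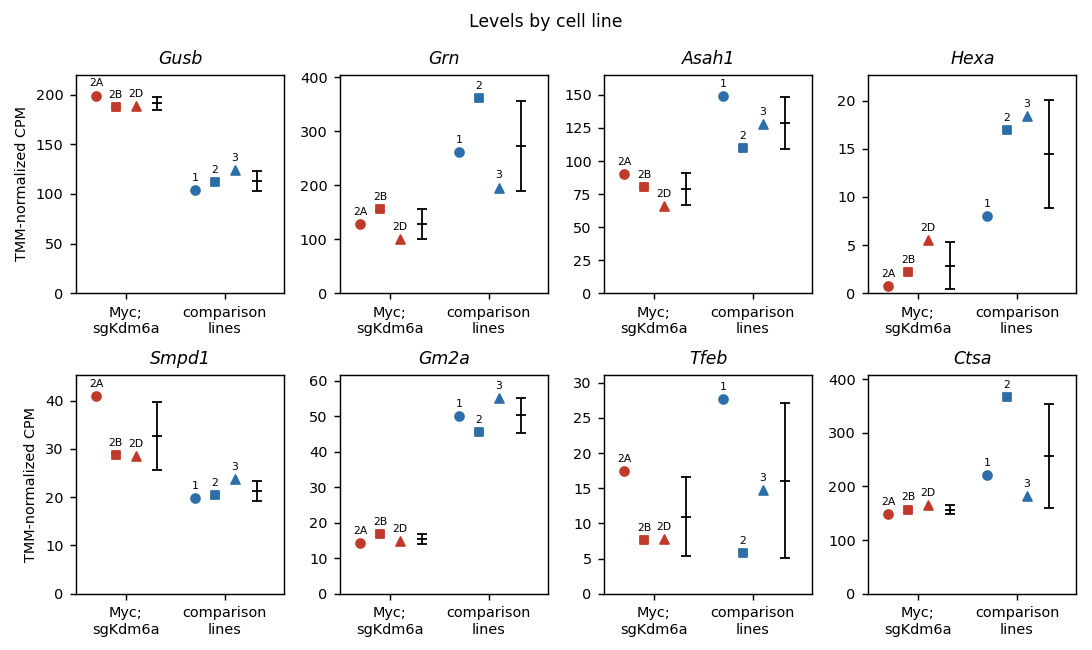
TMM-normalized counts-per-million of 8 genes in each line, with the mean and SD of each group of 3 lines beside the points (axes start at 0). The groups do not overlap for Gusb, Grn, Asah1, Hexa, Smpd1, Gm2a and Ctsa, while those of Tfeb do.

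The remaining glycosidases did not pass the test. Gla, alpha-galactosidase A, whose promoter carries the 2 CLEAR cores shown above, was slightly higher without overlap, at 24.1, 26.6 and 28.5 CPM against 23.7, 20 and 20.1 CPM (log2 fold change 0.31 ± 0.17, edgeR adjusted p = 0.231). The log2 fold changes of Gaa, Naglu, Glb1 and Neu1, which cleave glycogen, heparan sulphate, galactosides and sialic acid, were -0.52, -0.13, -0.08 and 0.16, all with overlap. Over the 7 glycosidases the median was -0.08.

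Of the 6 lipid-handling and other soluble proteins, 2 fell (33.3% of a short list, beside 7.69% of all genes tested) and 4 did not pass the test. Grn (chr11:102430315-102437048, plus strand) encodes progranulin, a secreted glycoprotein that is also delivered to lysosomes and cut there into granulins. It was at 129, 156 and 99.8 CPM in lines 2A, 2B and 2D and at 261, 362 and 196 CPM in lines 1, 2 and 3. Without overlap, the means were 128 ± 28.3 and 273 ± 83.2 CPM (SD, n = 3 each), 2.13-fold apart. Grn fell by 1.09 on the log2 scale with a standard error of 0.27 (edgeR adjusted p = 0.0437). The direction was kept whichever line was left out, at -1.28 to -0.83, but the call was kept in none of those fits: edgeR adjusted p was 0.122, 0.0865 and 0.138 without lines 2A, 2B and 2D and 0.0777, 0.0628 and 0.0596 without lines 1, 2 and 3. Macrophages express Grn strongly, and the summed macrophage markers given above were also higher in comparison lines. Grn was highest in line 2, the comparison line with the lowest macrophage sum (46.2 CPM). The part of those markers in the difference was not tested. Its exons share 68 bases with Fam171a2 on the opposite strand.

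Asah1 (chr8:41340197-41374773, minus strand), acid ceramidase, which splits ceramide into sphingosine and a fatty acid, was at 90.1, 80.5 and 66.1 CPM in Myc;sgKdm6a lines and at 149, 110 and 128 CPM in comparison lines. The groups did not overlap, with means of 78.9 ± 12.1 and 129 ± 19.9 CPM (SD, n = 3 each). Asah1 fell by 0.71 on the log2 scale with a standard error of 0.17 (edgeR adjusted p = 0.0434), 1.63-fold lower in Myc;sgKdm6a lines. With a line left out the log2 fold change was -0.81 to -0.58, and the call was kept without line 2 (edgeR adjusted p = 0.0361) and lost without lines 2A, 2B, 2D, 1 or 3 (0.0853, 0.12, 0.135, 0.0874 and 0.112).

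Smpd1, acid sphingomyelinase, which makes the ceramide that acid ceramidase removes, lay in the opposite direction to Asah1 without passing the test. It had 40.9, 28.8 and 28.5 CPM against 19.9, 20.4 and 23.7 CPM, with no overlap and line 2A the highest (log2 fold change 0.62 ± 0.20, edgeR adjusted p = 0.0869). Psap was nearly level, at 374, 391 and 348 CPM against 335, 425 and 393 CPM (log2 fold change -0.05 ± 0.12). The cholesterol carrier Npc2 (-0.20) and the acid lipase Lipa (-0.33) overlapped between the groups.

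**Figure D3:**
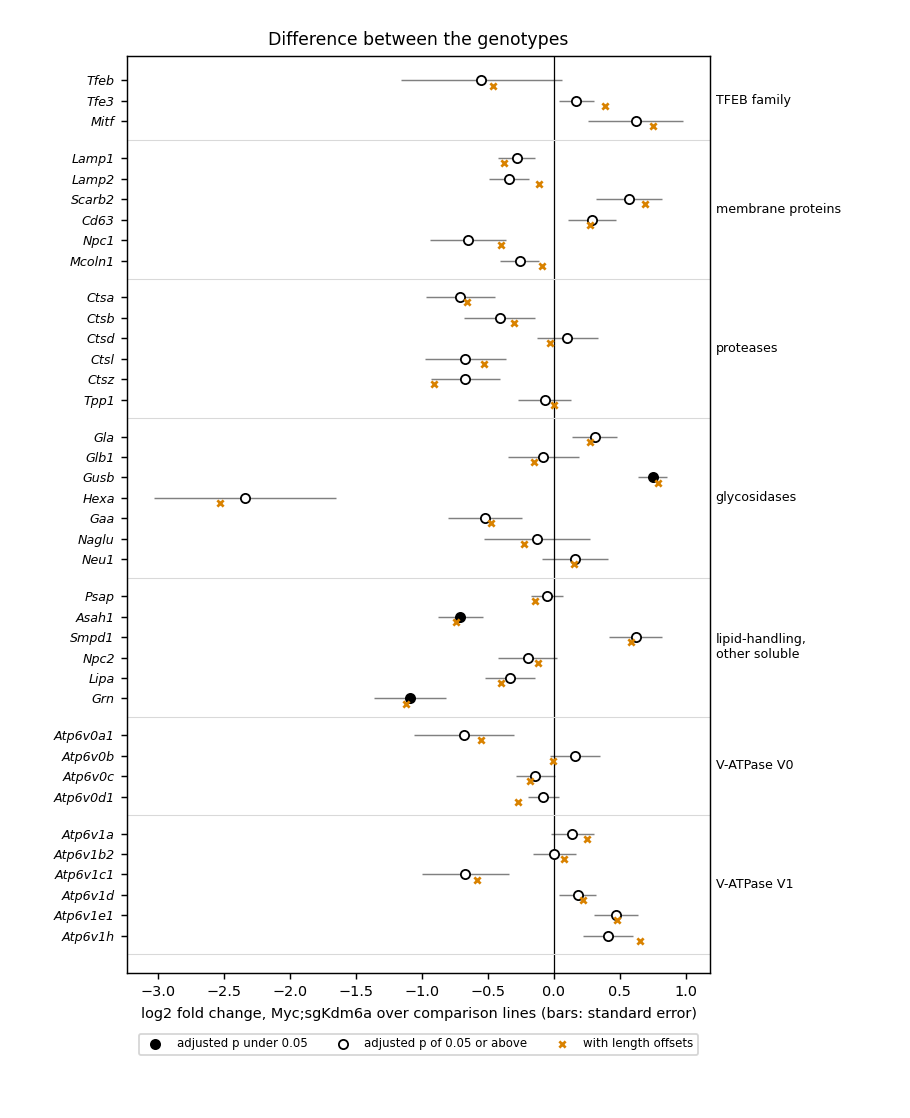
Log2 fold change of each of the 38 genes (Myc;sgKdm6a over comparison lines; circles, with bars of 1 standard error), filled where the adjusted p was under 0.05, with crosses for the fit with transcript length offsets. Gusb is the filled circle to the right of 0, Grn and Asah1 are those to the left, and Hexa is the outlying open circle at -2.34.

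No V-ATPase gene among the 38 passed the test. In the membrane sector the 4 genes had a median log2 fold change of -0.11. Atp6v0a1, the large subunit that lines the proton path, was at 52.9, 72.5 and 27.8 CPM against 106, 59.5 and 79.3 CPM, with overlap and a log2 fold change of -0.68 ± 0.38 (edgeR adjusted p = 0.246). Atp6v0b (0.16), Atp6v0c (-0.14) and Atp6v0d1 (-0.08) were close to 0. In the cytosolic sector the median was 0.16. Atp6v1c1, which joins the 2 sectors, was the exception in direction at -0.67 ± 0.33 (edgeR adjusted p = 0.198), with 55.2, 97.2 and 73.7 CPM against 171, 79.5 and 110 CPM, so that line 2 lay within the Myc;sgKdm6a values.

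Atp6v1e1, a stalk subunit, had no overlap, at 75.8, 96.6 and 99.5 CPM against 69.4, 55 and 72.1 CPM (log2 fold change 0.47 ± 0.17, edgeR adjusted p = 0.105). The regulatory subunit Atp6v1h overlapped at 63.2, 88.8 and 77.3 CPM against 47.7, 58.2 and 66.4 CPM, with a log2 fold change of 0.41. The catalytic subunit Atp6v1a, its partner Atp6v1b2 and the rotor subunit Atp6v1d had log2 fold changes of 0.14, 0.0035 and 0.18, and that of Atp6v1b2 fell below 0 with total counts (-0.07) or with the size factors of DESeq2 (-0.02).

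The 6 genes with TCACGTGA in their promoter window had log2 fold changes between -0.71 (Ctsa) and 0.31 (Gla), with a median of 0.01, and 3 of them lay above 0. The 26 genes whose window lacked it had a median of -0.11 and ranged from -2.34 to 0.75. Gusb and Grn were among the latter.

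Transcript length was considered because fold changes fell with length across the genes of this table. Over the 11510 genes tested, Spearman's rho between log2 fold change and deposited transcript length was -0.249, a value across genes, which are not independent replicates. Over the 38 lysosome genes, with lengths from 1441 to 10725 bases, it was 0.0279. Offsets that removed the length trend from each line left the same 3 genes called: Gusb at 0.79 (edgeR adjusted p = 0.017), Grn at -1.12 (0.0461) and Asah1 at -0.74 (0.0438). The median of the 38 genes was then -0.13, beside 0.03 for all genes tested. Ctsz, with a short deposited length, moved from -0.67 to -0.91 (edgeR adjusted p = 0.0528). Atp6v1h, with a long deposited length, moved from 0.41 to 0.65 (edgeR adjusted p = 0.0673), whereas Lamp2 moved from -0.34 to -0.11 and Npc1 from -0.65 to -0.40.

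**Figure D4:**
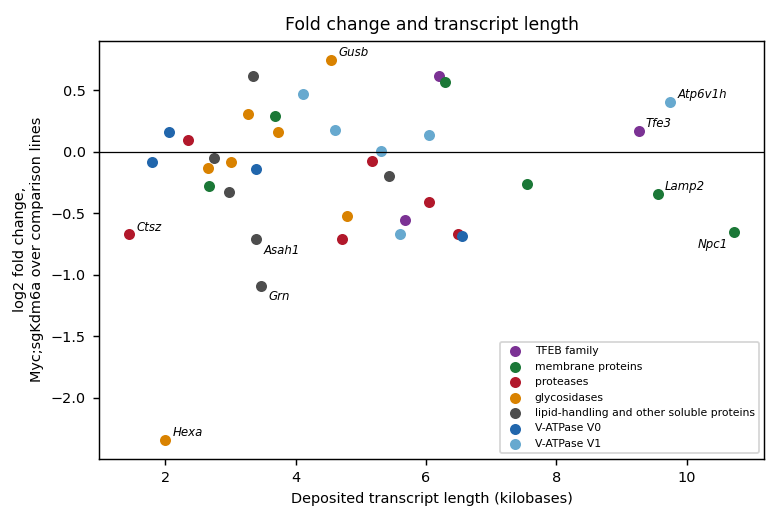
Log2 fold change (Myc;sgKdm6a over comparison lines) of the 38 genes against the deposited transcript length in kilobases, coloured by the role of the protein. The points show no trend with length (Spearman's rho 0.0279), and Hexa, at about 2 kilobases, stands apart at -2.34.

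The lysosome genes also varied among lines of the same genotype. The median coefficient of variation was 14.8% in Myc;sgKdm6a lines and 16.9% in comparison lines, beside 13.9% and 19.4% for all genes tested. Line 2 gave the highest value of the 6 lines for 14 of the 38 genes and line 2A the lowest for 13. On the log2(CPM + 0.5) scale, line 2 differed from the mean of lines 1 and 3 by 0.30 in size at the median of the 38 genes, close to the 0.32 of all genes tested. Its largest shortfalls were those of Tfeb (-1.73), Naglu (-1.27) and Glb1 (-0.88), and its largest excesses those of Ctsb (0.92), Ctsa (0.86), Npc1 (0.71) and Grn (0.67). Naglu (chr11:101070012-101077672) and Atp6v0a1 (chr11:101009452-101063719), neighbours on the same strand, were both lower in line 2, at -1.27 and -0.62. The autophagy genes Becn1 and Nbr1, further along chromosome 11, were instead highest in line 2. Becn1 was at 86.8, 96.2 and 74 CPM in lines 1, 2 and 3, and Nbr1 at 180, 335 and 156 CPM.

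**Figure D5:**
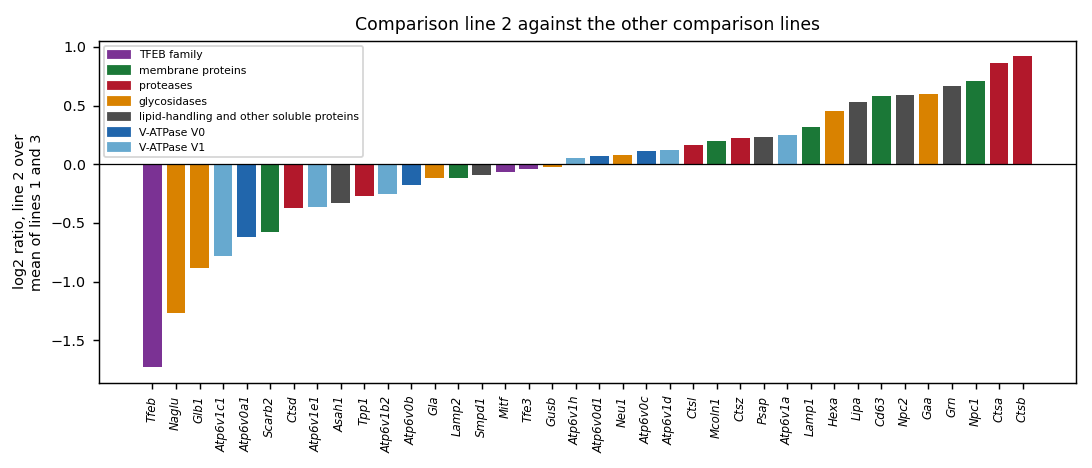
Log2 ratio of comparison line 2 over the mean of lines 1 and 3 for each of the 38 genes, on the log2(CPM + 0.5) scale, ordered by value and coloured by role. Tfeb stands at the low end at -1.73, and Ctsb and Ctsa at the high end at 0.92 and 0.86.

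A further 96 genes of the lysosome, the V-ATPase and autophagy were examined in the same fit, and 87 of them were tested. Of these, 5 were called higher in Myc;sgKdm6a lines (5.75%) and 7 lower (8.05%), again near the background of all genes, or 3 and 8 with total counts. Their median log2 fold change was -0.22, and the groups did not overlap for 9 higher (10.3%) and 30 lower genes (34.5%), where all genes tested gave 21.1% and 20.9%.

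Among 31 further hydrolases, 1 rose (3.23%) and 3 fell (9.68%), near the 6.99% and 7.69% of all genes tested. Fuca1, which removes fucose, rose by 0.57 ± 0.15 (edgeR adjusted p = 0.0495), and this call was lost in each fit that left a line out (0.0576 to 0.137) and with each other scaling, filter or length offset, while DESeq2 kept it. Gm2a, the GM2 activator that lifts the ganglioside from the membrane, was at 14.4, 16.9 and 14.9 CPM in Myc;sgKdm6a lines and at 50.1, 45.4 and 55 CPM in comparison lines, without overlap. Gm2a fell by 1.70 on the log2 scale with a standard error of 0.16 (edgeR adjusted p = 0.0103), 3.26-fold lower in Myc;sgKdm6a lines. This call was lost only without line 2A (edgeR adjusted p = 0.0614). Lgmn, an asparaginyl endopeptidase that matures cathepsins, was at 52.3, 38.6 and 55.4 CPM against 127, 164 and 67.9 CPM and fell by 1.29 on the log2 scale with a standard error of 0.33 (edgeR adjusted p = 0.0497), a call lost whichever of the 6 lines was left out (0.05 to 0.143). Ctss, a cysteine protease of antigen-presenting cells, had 0, 1 and 0 counts against 13, 10 and 36, a ratio of pooled rates of 46.7 with an exact 95% interval of 8.07 to 1877 that covers counting error only (edgeR adjusted p = 0.0242). The call of Ctss was lost without line 2A, 2B or 2D (edgeR adjusted p = 0.0841, 0.0785 and 0.0948), and the gene was too low to be tested without line 1 or 3.

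The 22 further membrane proteins and transporters held 1 gene that rose (4.55%) and 2 that fell (9.09%), where all genes tested gave 6.99% and 7.69%. Tmem192, a lysosomal membrane protein, rose by 0.76 ± 0.19 (edgeR adjusted p = 0.0462, lost in every fit that left a line out and with length offsets). Slc38a9, the arginine sensor that signals to mTORC1 from the lysosomal membrane, was at 10.6, 11.2 and 12.7 CPM against 29.1, 32.1 and 21.2 CPM. Slc38a9 fell by 1.25 on the log2 scale with a standard error of 0.22 (edgeR adjusted p = 0.0223). Its call was kept without line 1 or 2 (edgeR adjusted p = 0.0487 and 0.0349) and lost without line 2A, 2B, 2D or 3 (0.0811, 0.0812, 0.0805 and 0.0529). The call of Slc38a9 was also lost with length offsets (edgeR adjusted p = 0.0599), its deposited length of 16704 bases being long. Laptm5, a lysosomal protein of blood cells, had no count in any Myc;sgKdm6a line and 30, 13 and 34 counts in lines 1, 2 and 3 (edgeR adjusted p = 0.0188), at least 6.56-fold lower against a floor of 3 counts in each line. Leaving out line 2A, 2B, 2D or 3 lost the call of Laptm5 (edgeR adjusted p = 0.0639, 0.0615, 0.0677 and 0.07). Both Ctss and Laptm5 are expressed by macrophages, whose summed markers differed in the same direction, and the part of those markers was not tested.

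Of 10 further V-ATPase subunits tested, the accessory subunit Atp6ap1 rose by 0.68 ± 0.13 (edgeR adjusted p = 0.025), from 79, 89.9 and 102 CPM in comparison lines to 139, 150 and 145 CPM in Myc;sgKdm6a lines. Its call was lost without line 2A, 2B, 2D or 3 (edgeR adjusted p = 0.0739, 0.0843, 0.0892 and 0.0542). The small membrane subunit Atp6v0e2 fell by 4.02 on the log2 scale with a standard error of 0.99 (edgeR adjusted p = 0.0444), with 4, 11 and 2 counts against 207, 16 and 140. Line 2 again lay near the Myc;sgKdm6a lines, and the call for Atp6v0e2 was kept only without line 2 (edgeR adjusted p = 0.0172, otherwise 0.0847 to 0.14).

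Of 24 autophagy genes, all tested, 2 rose (8.33%) and 1 fell (4.17%), where all genes tested gave 6.99% and 7.69%. The median log2 fold change of the 24 was -0.30. Atg5, part of the conjugate that lipidates LC3, was at 45.5, 44.4 and 41.4 CPM against 26.5, 28.7 and 23.8 CPM and rose by 0.73 ± 0.14 (edgeR adjusted p = 0.0276). Atg3, the enzyme that transfers LC3 to lipid, rose by 0.70 ± 0.15 (edgeR adjusted p = 0.0331), at 65.6, 64.2 and 81.1 CPM against 41.7, 47.3 and 40.5 CPM. Vps11, of the HOPS tethering complex, was at 55.8, 57.1 and 49.7 CPM against 88.3, 121 and 82.1 CPM and fell by 0.84 on the log2 scale with a standard error of 0.18 (edgeR adjusted p = 0.0323). The calls of Atg5, Atg3 and Vps11 were kept only without line 2 among the fits that left a line out (edgeR adjusted p = 0.0274, 0.0312 and 0.0308), and lost without line 2A, 2B, 2D, 1 or 3, with adjusted p of 0.0517 to 0.12.

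The deposited annotation gave the gene ontology term lysosome to 327 genes, among them 24 of the 38. Of 177 tested genes with the term in neither list, 15 were called higher (8.47%) and 10 lower (5.65%), beside 6.99% and 7.69% of all genes tested. Their median log2 fold change was -0.01.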

How the data were processed

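The values deposited by the authors are unnormalized counts of reads for each Ensembl gene, beside gene coordinates and a transcript length. The submitters' processing notes name Trimmomatic 0.36, STAR 2.5.3a, featureCounts 1.6.3, DESeq2 1.20.0 and GRCm38 (mm10), whereas the paper's methods name HTSeq, a human build and, in place of Myc;sgKdm6a, Myc;sgMll3 lines; groups here follow the labels, which name Utx. The coordinates matched the mouse annotation GENCODE M21 for 95.9% of genes, and the strand setting of the counting is not given in the sources used here. With edgeR 4.0.16 (R 4.3.3), genes passing filterByExpr (minimum count 10) were kept, libraries were scaled by TMM, and the genotypes were compared by the quasi-likelihood F test over all 6 lines, with Benjamini-Hochberg adjustment over 11510 genes. The common dispersion was 0.112. With 3 lines against 3, an exact two-sided permutation test cannot go below 0.1, so no single-gene test of that kind was made. Length offsets were robust regressions (MASS 7.3.60.0.1) of each line on natural splines of transcript length with 5 degrees of freedom. DESeq2 1.42.0, other scalings and filters, and leaving out each line were alternatives. The procedure was tested on simulated data.

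The 38 genes and all lists were chosen with earlier results of these data known. The transcription factors, the called genes and the largest log2 fold change of each role were named with every line's value, as were genes without overlap. From the 96 further genes, those called and beyond 1 on the log2 scale were named, and otherwise the 2 largest called in each direction. Some results are not reported here. Cd68 is in both the macrophage list and the further membrane proteins.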

Additional observations from a re-analysis of the deposited data

How the results depend on the processing

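No paired analysis was possible because no replicate number occurs in both groups. With DESeq2, 1268 of the 11510 genes tested were called higher and 1514 lower. Of the 38 genes, 4 were then called lower (Ctsa and Hexa in addition to Grn and Asah1), and of the 87 further genes tested, 17 were called lower. Without a filter on low counts, 1 of the 38 genes was called lower, since Asah1 had an adjusted p of 0.0553. The further genes called higher numbered 3 with total counts, without a filter and with length offsets, and the median of the 38 genes was -0.17 with total counts. Leaving out each line in turn, with 11714 to 12127 genes tested, gave 3 to 836 genes called higher and 1 to 1118 lower. The lowest counts were those without line 2A and the highest those without line 2. The same fits gave 0 to 2 of the 38 genes called higher and 0 to 1 lower, with a median of -0.13 to 0.0067. Of the further genes, 0 to 3 were called higher and 0 to 8 lower. No gene of the 38 was called without line 2A, 2B, 2D or 3. At an unadjusted p under 0.05, 8, 6, 7 and 10 of the 38 passed in those fits, beside 29%, 27.8%, 25.8% and 28.4% of all genes tested. These fits compare 3 lines with 2. Log2 fold changes near 0 changed sign: with length offsets Ctsd was at -0.03, Tpp1 at 0.00041 and Atp6v0b at -0.01, and Atp6v1b2 was at -0.02 with DESeq2 size factors, -0.07 with total counts, -0.04 with at least 10 counts in every line and -0.02 with DESeq2. With a line left out the range crossed 0 for Tfeb (-1.03 to 0.09), Ctsd (-0.01 to 0.32), Tpp1 (-0.17 to 0.14), Glb1 (-0.32 to 0.15), Naglu (-0.45 to 0.22), Neu1 (-0.14 to 0.32), Psap (-0.15 to 0.03), Npc2 (-0.34 to 0.03), Atp6v1a (-0.00085 to 0.23) and Atp6v1b2 (-0.08 to 0.13). The cause of these changes was not tested. The low counts of Hexa in Myc;sgKdm6a lines, 4 to 25, limit its precision.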

Other observations

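Among further genes too low to be tested, some V-ATPase and hydrolase genes were counted mainly in comparison lines. Atp6v0d2, a V0 subunit of osteoclasts and macrophages, had no count in lines 2A, 2B and 2D and 16, 2 and 11 counts in lines 1, 2 and 3. Acp5, tartrate-resistant acid phosphatase, had 0, 0 and 1 counts against 5, 22 and 3, and Ctsk, a collagen-degrading cathepsin, had 0, 1 and 0 counts against 1, 4 and 6. The tissue-restricted subunits Atp6v1b1, Atp6v1e2 and Atp6v1g3 had no count in any line.

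Map1lc3a and Atg14 were the autophagy genes with the largest log2 fold changes that missed the threshold with TMM scaling alone. Map1lc3a, a form of LC3, was at -1.17 ± 0.33 (edgeR adjusted p = 0.0599), and at -1.43 with length offsets, where it passed (edgeR adjusted p = 0.0449). Atg14, a subunit of the lipid kinase complex that starts autophagosomes, was at -1.22 ± 0.36 (edgeR adjusted p = 0.0656). Neither gene overlapped between the groups.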
